A study of Mus musculus with 15 samples.

Results

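The complement genes examined here were C1qa, C1qb, C1qc, C3, C4b, Cfb, C1ra, Serping1 and Cd59a. They were chosen by name as initiating factors, central components and regulators of the complement cascade, and 9 genes were named in all. Of these, 8 were measured through a probe set that carries a single gene symbol, out of 22180 genes measured in that way, and C3 was not analysed here. Transcript levels came from whole mouse eyeballs on 15 Affymetrix arrays, given as log2 values, so that a difference of 1 is a doubling. At 6 months of age, 4 arrays were labelled wild type (WT) and 3 were labelled R6/1, and at 9 weeks of age 4 were labelled WT and 4 R6/2. All mice had the strain label C57BL/6J. The R6/1 and R6/2 mice carry a transgene with exon 1 of the human huntingtin gene and an expanded CAG repeat, of 131 ± 3.1 repeats in R6/1 and 162 ± 2.8 in R6/2 (SD, as the series description gives them). The transgene is driven by the human huntingtin promoter, and WT littermates lack it. The study took both ages as the symptomatic stage of the respective model and asked which ocular transcripts change. RNA had been pooled into the samples, and the number of animals per pool is not given in the sources used here. The p-values therefore measure the spread between these arrays only.

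Complement is a set of proteins that tag cells and debris for removal. The classical pathway starts when C1q, built from the products of C1qa, C1qb and C1qc, binds a surface and activates the proteases C1r and C1s, which cleave C4 and C2. Cleavage of C3 follows, is amplified by factor B, and can end in a membrane attack complex. C1 inhibitor (Serping1) blocks C1r and C1s, and CD59 stops assembly of the attack complex on host cells. In the eye, C1q is known as a microglial product, and complement tagging of synapses by microglia is known from the developing visual pathway of mice.

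One array has to be named before the results. The methods of the study divide the 6-month arrays between WT and R6/1 differently from the labels. The array labelled WT replicate 4 had Opn1sw, the short-wavelength cone opsin, at 3.48, while the other WT arrays of that age had 7.49, 7.84 and 7.46 and the R6/1 arrays had 2.91, 2.51 and 3.01. Its level is that of the R6/1 arrays and goes against its label. Its mean over 7 skeletal muscle genes was also the lowest of the WT arrays, at 5.41. Groups below are as labelled, and the 6-month values of the members are also given without it. Gland tissue differed between the arrays. The mean of 7 lacrimal and Harderian gland genes ran from 6.19 to 7.52 in WT 9 weeks replicates 1, 2 and 4 and was 6.22 in R6/2 replicate 4, while it lay between 4.16 and 5.59 in the other 11 arrays, and Elovl3, a lipid gene of that list, ran from 1.57 to 9.51. The part of gland tissue in the results below was not tested. The interquartile range of an array lay between 2.17 and 2.61, and the most narrow were WT 6 months replicate 3 and R6/1 replicate 3. Levels could not be set against background, since no detection values were used, and the number of arrays limits the precision. Differences were tested in 1 limma model over all arrays. Called genes are those with p under 0.05 and with an adjusted p (Benjamini-Hochberg, over all genes tested) under 0.20. Only the 50% of genes that varied most, 11090 in all, were tested. C1qb, C4b, C1ra, Serping1 and Cd59a were among these, while C1qa, C1qc and Cfb varied less and are given from the same model over all 22180 genes.

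The complement genes fell into a bright and a dim set. Serping1 and Cd59a had mean signals of 6.59 and 6.75 over the 15 arrays, at the 94.4th and 95.3rd percentile of all genes. The means of the other 6 lay between 2.25 (C1qc) and 3.84 (C4b), at percentiles from 27.8 to 59.1. Probes differ in how well they bind, so these positions describe signals and not amounts of transcript. The C1q genes had their signals at the 56.5th (C1qa), 53.6th (C1qb) and 27.8th (C1qc) percentile. Of the microglial markers, Cx3cr1 stood at the 77.1st percentile, P2ry12 at the 49.95th and Tmem119 at the 33.5th, and the median percentile of 16 measured microglia and macrophage markers was 48.8. The level in every array is drawn in the plot of the 8 genes by group.

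**Figure D1:**
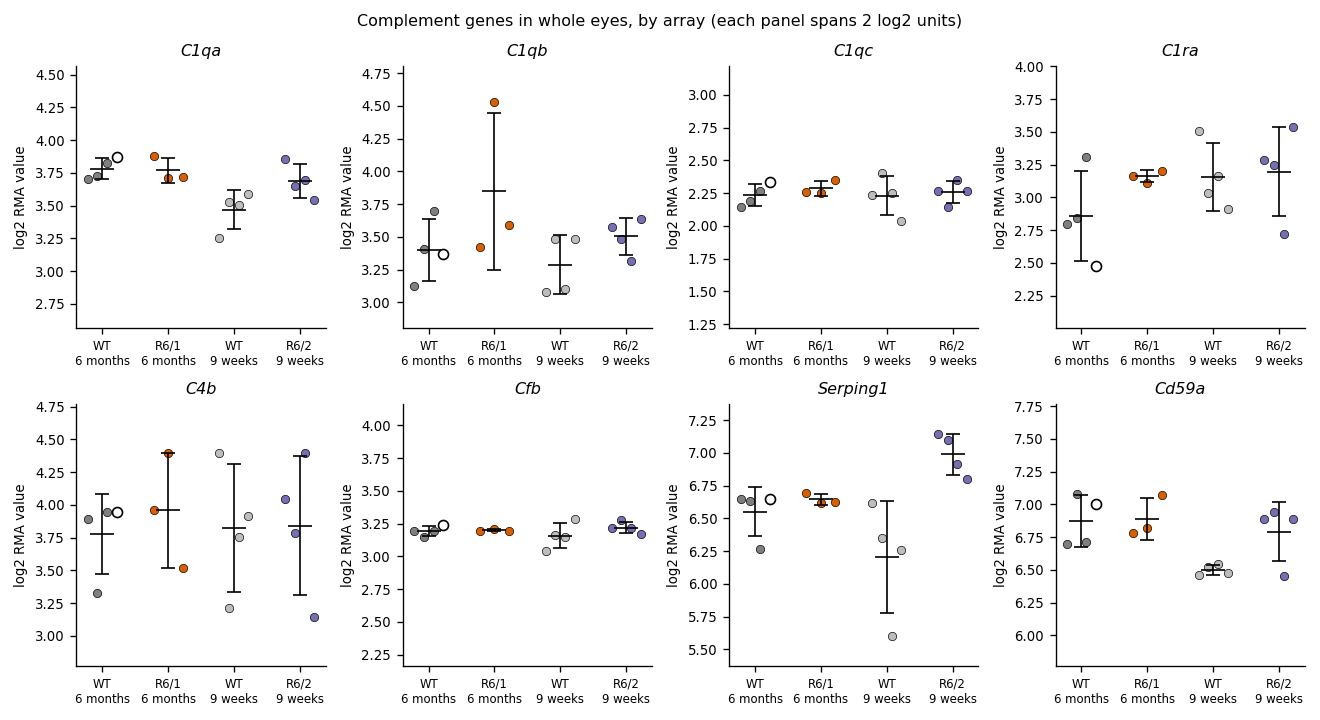
Log2 signal (y axis) of the 8 measured complement genes in WT and R6/1 eyes at 6 months and in WT and R6/2 eyes at 9 weeks (x axis), with each array as a point, group means ± SD as bars, and the array labelled WT 6 months replicate 4 as an open circle. Each panel spans the same number of log2 units. The 4 R6/2 arrays of Serping1 (6.80 to 7.14) lie above the 4 WT arrays of the same age (5.60 to 6.61), and the 4 WT arrays of Cd59a at 9 weeks (6.46 to 6.54) lie below all WT arrays at 6 months (6.69 to 7.08).

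No gene for a C1q chain was called between R6/1 and WT eyes, and C1qb had the largest R6/1 difference of the 8 members. C1qb encodes the B chain of C1q. Its levels were 3.12, 3.41 and 3.70 in WT at 6 months and 3.37 in the array labelled WT replicate 4, against 3.42, 4.53 and 3.59 in R6/1. One R6/1 array, replicate 2, stood apart at 4.53, and the other two lay inside the WT range. The difference of 0.45 (SE 0.22, 95% interval -0.03 to 0.92, adjusted p = 1.00) did not pass the threshold. It was 0.11 without that array, 0.66 without R6/1 replicate 1 and 0.76 with array weights (adjusted p = 0.251), so that its size depended on single arrays. C1qa, the A chain, was at 3.71, 3.73, 3.83 and 3.87 in WT and at 3.88, 3.71 and 3.72 in R6/1. The groups overlapped, and the difference was -0.01 (SE 0.11), or 0.02 without the array labelled WT replicate 4. C1qc, the C chain, lay between 2.14 and 2.33 in WT and between 2.25 and 2.35 in R6/1, a difference of 0.05 (SE 0.10). Without the array labelled WT replicate 4 the differences of C1qb and C1qc were 0.44 and 0.09.

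At 9 weeks all 3 C1q genes had a higher mean in R6/2 than in WT, and none passed the threshold. C1qa was at 3.25, 3.53, 3.51 and 3.59 in WT and at 3.85, 3.65, 3.70 and 3.54 in R6/2. The lowest R6/2 array lay below the highest WT array. The difference was 0.22 (SE 0.10, 95% interval 0.0041 to 0.43, adjusted p = 0.627). C1qb was at 3.08, 3.48, 3.11 and 3.48 in WT and at 3.58, 3.49, 3.32 and 3.64 in R6/2, and the difference of 0.22 (SE 0.21, adjusted p = 0.792) was about the size of its error. C1qc differed by 0.03 (SE 0.09), with WT arrays from 2.04 to 2.41 and R6/2 arrays from 2.14 to 2.35. The mean over the 16 microglia and macrophage markers ran from 3.31 to 3.44 in WT and from 3.46 to 3.495 in R6/2 without overlap. Of single tested genes, 4.86% were higher in R6/2 without overlap of the arrays. At 6 months the marker mean ran from 3.47 to 3.70 in WT and from 3.63 to 3.78 in R6/1, with overlap. Of the 16, 7 were among the genes tested, and none of these 7 was called in R6/2, beside 0.171% of tested genes. The part of these markers in the C1q values was not tested. In whole eyes, the number of cells of a type and the RNA per cell cannot be told apart.

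C1qb, C1qc and C1qa lie next to each other on chromosome 4 in the RefSeq annotation (GRCm38.p6). Their levels nevertheless moved little together over the 15 arrays. Pearson's r was 0.30 between C1qa and C1qb, 0.12 between C1qa and C1qc and 0.09 between C1qb and C1qc. These values describe arrays that share group, age and normalization. The 3 signals were dim, and C1qa and C1qc spanned only 0.63 and 0.37 over all arrays. A low r among such signals cannot show whether the transcripts moved together.

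The proteases and the components they act on showed no called difference in either model. C1ra encodes the protease C1r, and C1rb, near it on chromosome 6, is a near copy, so that signals of the pair may be split or shared. C1ra was at 2.80, 2.85 and 3.31 in WT at 6 months and 2.48 in the array labelled WT replicate 4, against 3.17, 3.11 and 3.20 in R6/1. All R6/1 arrays lay inside the WT range. The difference of 0.30 (SE 0.21, adjusted p = 1.00) was 0.18 without the array labelled WT replicate 4 and 0.0041 when that array was counted as R6/1. At 9 weeks C1ra was at 3.51, 3.03, 3.17 and 2.91 in WT and at 3.28, 3.24, 2.72 and 3.53 in R6/2, a difference of 0.04 (SE 0.19). C4b encodes complement C4, with C4a as a near copy. It was at 3.89, 3.33, 3.95 and 3.95 in WT and at 3.96, 4.39 and 3.52 in R6/1. At 9 weeks it was at 4.40, 3.21, 3.76 and 3.92 in WT and at 4.04, 3.78, 4.40 and 3.14 in R6/2. C4b had the widest scatter within groups of the 8 genes, with a residual SD of 0.45, and its differences of 0.18 (SE 0.30) in R6/1 and 0.02 (SE 0.28) in R6/2 were below their errors. Cfb, factor B of the alternative pathway, had the narrowest scatter, with all 15 arrays between 3.04 and 3.28 and differences of 0.01 (SE 0.09) in R6/1 and 0.06 (SE 0.08) in R6/2. Without the array labelled WT replicate 4 the R6/1 differences of C4b and Cfb were 0.24 and 0.02.

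Serping1 differed most between R6/2 and WT among the 8 genes. It encodes C1 inhibitor, which blocks C1r and C1s and also proteases of the contact system. Its levels were 6.61, 6.35, 5.60 and 6.26 in WT at 9 weeks and 7.14, 7.10, 6.91 and 6.80 in R6/2. Every R6/2 array was above every WT array, which held for 4.86% of the tested genes. The difference was 0.78 (SE 0.18, 95% interval 0.40 to 1.16), or 1.72-fold. The adjusted p of 0.212 missed the threshold of 0.20 by a small margin. With the replicate number as a block, a pairing that the labels do not name, the adjusted p was 0.0934 and the gene was called. It was also called without the array labelled WT 6 months replicate 4 (adjusted p = 0.165), which lies outside the groups compared and enters only through the shared error. It was called likewise without WT 6 months replicate 3 (adjusted p = 0.149) or WT 9 weeks replicate 1 (adjusted p = 0.146). Without WT 9 weeks replicate 3, the lowest array, the difference was 0.58 and the adjusted p was 0.0613. Without R6/2 replicate 2 the difference was 0.74 and the adjusted p was 0.636. The call thus depended on the setting, while the difference stayed between 0.58 and 0.92 in all 29 other settings. In 15 of these 29 the gene was not called, among them the model over all genes without the variance filter (adjusted p = 0.295).

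At 6 months Serping1 did not show this difference. The levels were 6.65, 6.63 and 6.27 in WT and 6.64 in the array labelled WT replicate 4, against 6.69, 6.61 and 6.63 in R6/1. WT replicate 3 lay below the rest, and the remaining 6 arrays lay within 0.1 of each other. The difference was 0.09 (SE 0.19, 95% interval -0.32 to 0.51, adjusted p = 1.00) and 0.13 without the array labelled WT replicate 4. Set against each other, the R6/1 difference was 0.69 below that of R6/2 (-0.69, SE 0.27, 95% interval -1.24 to -0.13, adjusted p = 1.00), so that the models were not called different. The models also differ in age, and model and age cannot be told apart. Group means of Serping1 ran from 6.21 ± 0.43 in WT at 9 weeks through 6.55 ± 0.19 in WT and 6.64 ± 0.04 in R6/1 at 6 months to 6.99 ± 0.16 in R6/2 (SD, n = 4, 4, 3 and 4). WT and R6/1 at 6 months, which neighbour each other in this order, overlapped.

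Markers of several other cell types also differed between R6/2 and WT at 9 weeks, in either direction. The mean of 8 fibroblast and stroma genes ran from 6.28 to 6.78 in WT and from 6.80 to 7.11 in R6/2, without overlap, and none of the 8 was called. Dcn, decorin of the extracellular matrix, was at 8.70, 8.44, 8.33 and 8.61 in WT and at 9.12, 9.14, 8.98 and 8.82 in R6/2. The mean of 7 skeletal muscle genes ran from 7.26 to 7.71 in WT and from 5.25 to 6.70 in R6/2, again without overlap. Of 5 photoreceptor genes, 3 were called lower in R6/2, beside 0.171% of tested genes called in either direction. The mean of the 5 ran from 7.66 to 8.44 in WT and from 5.84 to 6.10 in R6/2. The 7 gland genes had a median difference of -1.78 in R6/2, with none of the 6 tested called. WT replicate 3, the lowest array for Serping1, had a gland mean of 4.65 beside 6.19 to 7.52 in the other WT arrays. The interquartile range of that array was 2.43, beside 2.47 to 2.61 in the other arrays at 9 weeks. The mean of 6 interferon response genes, ran from 3.79 to 4.13 in WT and from 3.85 to 4.64 in R6/2, with overlap. Interferon is known to induce Serping1. The part of these values in the Serping1 difference was not tested. At 6 months the stroma mean ran from 6.02 to 6.51 in WT and from 6.22 to 6.78 in R6/1. Between the WT ages the group mean of stroma was 6.51 at 9 weeks and 6.38 at 6 months, while that of Serping1 was 6.21 and 6.55. The genes whose levels were most like those of Serping1 over the 15 arrays were Svep1, Col12a1 and Serpinf1 (Pearson's r of 0.89, 0.88 and 0.85). Within groups, as deviations from the group means, their r with Serping1 was 0.80, 0.78 and 0.67.

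**Figure D2:**
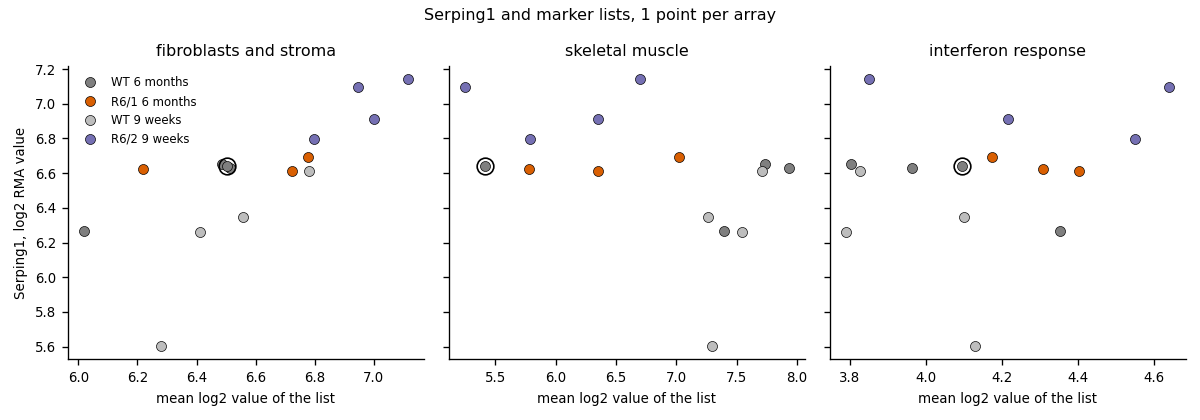
Log2 signal of Serping1 (y axis) against the mean log2 signal of the fibroblast and stroma, skeletal muscle and interferon response genes (x axes, 1 panel each), with each array as a point coloured by group and the array labelled WT 6 months replicate 4 ringed. R6/2 arrays lie at stroma means of 6.80 to 7.11 and muscle means of 5.25 to 6.70, and WT arrays of the same age at 6.28 to 6.78 and 7.26 to 7.71.

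Cd59a was the other bright gene, and its higher levels were with age and, short of the threshold, in R6/2. It encodes the widely expressed mouse form of CD59, and Cd59b, its near copy, lies next to it on chromosome 2. The levels were 6.46, 6.52, 6.54 and 6.48 in WT at 9 weeks and 6.88, 6.94, 6.46 and 6.89 in R6/2. Of the R6/2 arrays, 3 lay above all WT arrays and replicate 3 lay with them. The difference was 0.29 (SE 0.14, 95% interval -0.0077 to 0.59, adjusted p = 0.506). At 6 months the levels were 6.69, 7.08 and 6.71 in WT and 7.01 in the array labelled WT replicate 4, against 6.78, 6.82 and 7.07 in R6/1. These groups overlapped fully, with a difference of 0.02 (SE 0.15) and of 0.06 without the array labelled WT replicate 4.

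Of the members tested, 0 of 5 were called in R6/1, where 0.0541% of all tested genes were called, and 0 of 5 in R6/2, where 0.171% were called. In the model over all genes it was 0 of 8 in each, beside 0.00902% and 0.0766%. At an unadjusted p under 0.05, each member taken from the fit it is given from above, there were 0 of 8 in R6/1 and 2 of 8 in R6/2 (Serping1 and C1qa). The shares in the model over all genes were 3.10% and 7.81%. In that model Cd59a in R6/2 was also under 0.05, as its adjusted p (0.595) lay below that of C1qa (0.627). In the fit of tested genes its p was 0.0555. With backgrounds this low, counts of 0 say little about the members. The median difference of the 8 was 0.07 in R6/1, beside a median of 0.01 over all genes, and 0.14 in R6/2, beside 0.02. In R6/2 all 8 differences were above 0, as were those of 54.7% of all genes, and in R6/1 it was 7 of 8 and 52.2%. For the difference between the models 0 of 5 were called, beside 0.00% of tested genes, and 1 of 5 (Serping1) had an unadjusted p under 0.05, beside 2.72% of tested genes.

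**Figure D3:**
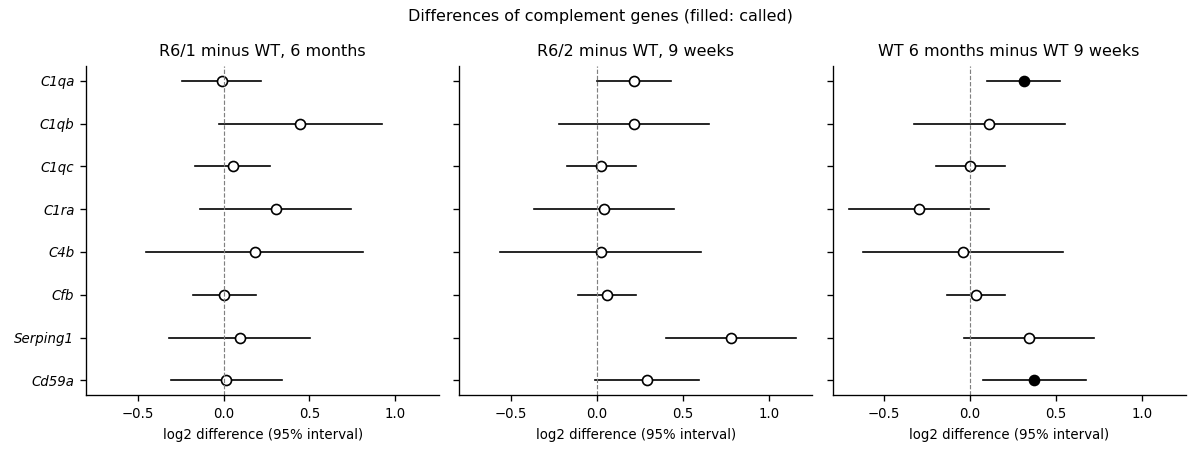
Log2 differences of the 8 measured complement genes (points) with 95% intervals (lines) for R6/1 and R6/2, each against WT of its own age, and for the older against the younger WT eyes, with filled points for called genes. In the R6/2 panel the interval of Serping1 runs from 0.40 to 1.16, and in the age panel Cd59a (0.37) and C1qa (0.31) are filled.

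WT eyes at the 2 ages differed more widely, and here Cd59a and C1qa were called higher at 6 months. Of the 5 members tested, 1 was called, beside 19.2% of tested genes (7.74% called higher), so that a call was not rare in this comparison. Cd59a was 0.37 higher (SE 0.14, 95% interval 0.07 to 0.67, adjusted p = 0.141), with all WT arrays at 6 months above all WT arrays at 9 weeks, as in 3.18% of tested genes. In the model over all genes C1qa was called as well, at 0.31 higher (SE 0.10, 95% interval 0.10 to 0.53, adjusted p = 0.141), beside 9.57% of all genes (4.04% called higher). At an unadjusted p under 0.05 these 2 were the only members of the 8, beside 16.1% of all genes. The C1qa values of the WT arrays at 6 months (3.71 to 3.87) lay above those at 9 weeks (3.25 to 3.59), as in 2.32% of all genes. Without the array labelled WT replicate 4, Cd59a was 0.33 higher (adjusted p = 0.262) and C1qa 0.28 higher (adjusted p = 0.251), and neither was called. The call of Cd59a was also lost without WT 6 months replicate 2 or any of WT 9 weeks replicates 1, 2 and 4, at adjusted p-values from 0.206 to 0.296. That of C1qa was also lost without WT 6 months replicate 2 or WT 9 weeks replicate 1 or 2, at adjusted p-values from 0.216 to 0.243. It was lost as well with only the arrays compared (adjusted p = 0.355) and with median-centred arrays (adjusted p = 0.242). The same held with the array labelled WT 6 months replicate 4 counted as R6/1 (adjusted p = 0.227). Serping1 was 0.34 higher at 6 months (SE 0.18, adjusted p = 0.286) and was not called. It was called in 8 of 29 other settings, among them the replicate block (adjusted p = 0.171), array weights and repeated quantile normalization. C1ra was 0.30 lower (SE 0.19, adjusted p = 0.399). In 4 of 28 other settings C1ra was called lower, and its adjusted p ran from 0.131 to 0.718 over the 28. These settings were array weights, the array's interquartile range as a covariate, and WT 6 months replicate 3 left out, alone or with R6/1 replicate 3. C1qb, C1qc, C4b and Cfb differed by 0.11 (SE 0.21), 0.0017 (SE 0.09), -0.04 (SE 0.28) and 0.03 (SE 0.08). Without the array labelled WT replicate 4, Serping1 differed by 0.31, C1ra by -0.17, C1qb by 0.12, C1qc by -0.03, C4b by -0.10 and Cfb by 0.02, and none of these was called. The median of the 8 differences was 0.07, beside -0.0012 over all genes.

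Markers of several cell types also differed between these ages. The counts of called markers stand beside 19.2% of tested genes called in either direction in this comparison. Of the 7 gland genes, 6 were tested and 4 were called lower at 6 months. The 7 had a median difference of -1.53 and a mean between 4.44 and 4.89 at 6 months and between 4.65 and 7.52 at 9 weeks. Of the 8 stroma genes, all tested, 2 were called higher and 2 lower. Of 8 markers of Mueller glia and astrocytes 3 were tested and 1 was called higher. Of 6 lens genes 5 were tested and 1 was called lower. Of 6 markers of the retinal pigment epithelium and melanocytes, 4 were called higher at 6 months, and their mean ran from 7.13 to 7.44 at 6 months and from 6.41 to 6.95 at 9 weeks in WT. The gene most like Cd59a over the 15 arrays was Pmel, a melanosome protein on that list (r = 0.86), followed by Eda and Serinc1 (0.85 and 0.84). Of the 16 microglia and macrophage markers, 7 were tested and 2 were called higher at 6 months. The mean of the 16 ran from 3.47 to 3.70 at 6 months and from 3.31 to 3.44 at 9 weeks. The part of these values in the results for Cd59a and C1qa was not tested. The 2 ages were different sets of mice, and age and any other difference between these sets cannot be told apart.

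The RefSeq promoter table (GRCm38.p6) held 4 of the 8 measured genes, namely Cd59a, C1qb, C1qc and C1ra, and not Serping1, C1qa, C4b or Cfb. The promoter of Cd59a is shown, as the gene called among those tested. It covers 250 bases before and 50 bases after the start, at chr2:104095551-104095850 on the plus strand, and the capitals mark GAGGAA, an ETS core of the kind bound by the myeloid factor PU.1.

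Cd59a: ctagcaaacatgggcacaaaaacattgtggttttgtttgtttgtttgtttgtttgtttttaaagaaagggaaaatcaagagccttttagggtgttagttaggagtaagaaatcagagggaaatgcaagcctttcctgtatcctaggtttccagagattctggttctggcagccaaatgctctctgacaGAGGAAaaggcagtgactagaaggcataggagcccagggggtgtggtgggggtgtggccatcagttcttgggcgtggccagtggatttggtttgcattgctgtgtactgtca

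On both strands, GAGGAA was found in all 4 promoters, and in 28.3% of 32851 promoters of this length. TATAAA (13.6% of promoters) and CCAAT (37.4%) had no match in the 4, GGGCGG (35.7%) had 1 in C1qc, and the STAT motif TTCNNNGAA (8.30%) had 1 in C1ra. No matches overlapped in these promoters. A match is a run of letters, and binding was not measured.

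The rest of the complement system was looked at for comparison, and 47 of 53 other complement genes were measured, 22 of them among the genes tested. None was called in R6/1 or in R6/2, beside 0.0541% and 0.171% of tested genes. In R6/1 3 and in R6/2 5 of the 47 had an unadjusted p under 0.05, beside 3.10% and 7.81% of all genes. Their median difference was 0.02 in both models, beside 0.01 and 0.02 over all genes. Of 14 further initiating factors, C1rb differed most in R6/1 (0.62, SE 0.25, adjusted p = 1.00) and C1s2, of the C1s protease family, in R6/2 (-0.32, SE 0.14, adjusted p = 0.449). Of 8 genes of the alternative and terminal pathways, C7 differed most in R6/1 (0.15, SE 0.15) and C9, the pore-forming subunit, in R6/2 (-0.22, SE 0.13).

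Among 16 further regulators, Sez6 stood lowest in R6/1. It encodes a neuronal membrane protein with complement control domains. Its mean was 4.83 in WT and 4.32 in R6/1, a difference of -0.51 (SE 0.15, adjusted p = 0.678), with all R6/1 arrays below all WT arrays, as in 1.90% of tested genes. In R6/2 the difference was -0.24 (SE 0.14, adjusted p = 0.587). Cd59b differed most among the regulators in R6/2, at 0.31 higher (SE 0.14, adjusted p = 0.617), beside 0.29 for Cd59a. Its mean signal of 2.09 in WT at 9 weeks was dim. Of 9 receptors, C5ar2, a C5a receptor, was 0.39 higher in R6/2 (SE 0.16, adjusted p = 0.428) and Cd93 0.36 lower (SE 0.17, adjusted p = 0.493), and Itgb2, the shared chain of complement receptors 3 and 4, differed most in R6/1 (0.20, SE 0.13). None of 7 measured C1q-domain relatives outside the cascade, such as the synaptic cerebellins, was called in either model. C1ql3, the remaining relative listed, had no probe set with a single symbol and was not analysed here. The study reported it as raised in both models at the symptomatic stage by quantitative PCR.

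Between the WT ages, Colec12 and Csmd3 joined the called genes. Colec12, a scavenger receptor with a collectin domain, was at 5.28 in WT at 9 weeks and 5.93 at 6 months, 0.65 higher (SE 0.13, adjusted p = 0.0224). All its WT arrays at 6 months lay above those at 9 weeks, as in 3.18% of tested genes. Colec12 was the only one of the 22 tested to be called, beside 7.74% of tested genes called higher. Csmd3, a neuronal gene with complement control domains, was 0.36 higher (SE 0.12, adjusted p = 0.147) in the model over all genes, with overlapping arrays. In that model 4.04% of all genes were called higher. No other complement gene was called in either direction. The complement genes outside the members were fitted only with the groups as labelled. How their 6-month values depend on the array labelled WT replicate 4 was not tested.

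**Figure D4:**
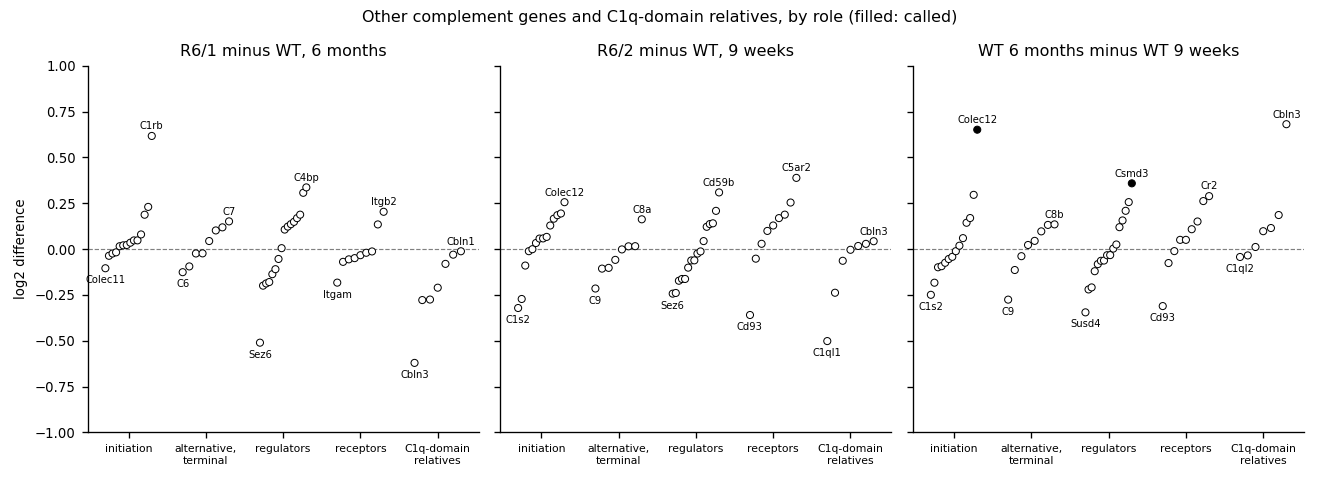
Log2 differences (y axis) of the 47 other measured complement genes and 7 C1q-domain relatives, grouped by role (x axis), in R6/1 and R6/2 against WT of the same age and in older against younger WT eyes (panels), with each gene as a point, filled where called. Colec12 (0.65) and Csmd3 (0.36) in the age panel are the filled points, and most others lie near 0.

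For the dim genes that were tested, the most similar genes were not among the complement genes listed. C1qb was most like 6330415G19Rik (r = 0.84), C4b most like Rplp2 (0.76) and C1ra most like Zp3r (0.87) over the 15 arrays. Serping1 and Cd59a, the 2 bright genes, had an r of 0.43 with each other, and of 0.10 once group means were taken out.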

How the data were processed

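RNA of mouse eyeballs had been hybridized to 15 Affymetrix Mouse Gene 2.1 ST arrays. Background correction, normalization and probe summary were done by the authors with RMA, and log2 values of 41345 probe sets were deposited. The genome build is not given in the sources used here. Probe sets were named from GEO's platform annotation: 23521 had 1 symbol, 1820 several and 16004 none, and a gene was represented by its single-symbol probe set with the highest mean. C3 matched none of these and was not analysed here. The study's variance filter was followed by keeping the 50% of genes with the higher interquartile range (11090 of 22180). In limma 3.58.1 (R 4.3.3), 1 model held the means of the 4 groups, and Benjamini-Hochberg adjustment ran over all genes tested. Figures were drawn with matplotlib 3.10.9 in Python 3.11.15. The method was also run on simulated data with independent noise in each array. Those data lack the differences in spread and tissue between the arrays described here. A threshold of p under 0.05 and adjusted p under 0.20 was taken from the study's methods. The members and gene lists were chosen with earlier results of these data known. Named are the members and other complement genes that were called or differed most in their role. By Pearson's r, the 3 genes most like Serping1 and Cd59a are named, and only the most similar gene for C1qb, C4b and C1ra.

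Whether replicate numbers pair the arrays was checked through Pearson's r of each array's deviation from its group mean. Equal numbers gave 0.41, 0.34 and 0.75 at 6 months, all above 0.1, and 0.11, -0.29, -0.22 and 0.26 at 9 weeks. Unequal numbers gave values from -0.55 to 0.31 at 6 months and from -0.29 to 0.35 at 9 weeks. The value of 0.75 joins WT 6 months replicate 3 and R6/1 replicate 3, the arrays of narrowest spread. These values do not settle whether the numbers pair the arrays, and the labels name no pairing. A fit with the number as a block was run as an alternative, beside other filters, scalings and priors, each array left out in turn, and the array labelled WT 6 months replicate 4 counted as R6/1.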

Additional observations from a re-analysis of the deposited data

Results flagged for a closer look

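In 24 groups of 4 arrays (8 genes in the 3 groups of that size), an array was looked for whose distance to its nearest neighbour took a larger share of the group's range than Dixon's 95% critical value. Chance gives about 1 in 20 groups, and 3 were found. WT 6 months replicate 2 was lowest for C4b, at 3.33 with the next array at 3.89. WT 6 months replicate 3 was lowest for Serping1, at 6.27 with the next at 6.63, and it is also 1 of the arrays with a narrow spread. R6/2 replicate 3 was lowest for Cd59a, at 6.46 with the next at 6.88, and lay with the WT arrays of its age. The 3 R6/1 arrays were too few for this check, which therefore did not cover R6/1 replicate 2 of C1qb.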

How the results depend on the processing

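Each of 25 values for members was computed under up to 29 other settings. In R6/1, and for the difference between the models, 0 members were called in every setting run. In R6/2, where 0 were called, 1 (Serping1) was called with the mean of all probe sets of a gene, an intensity trend in the prior, repeated quantile normalization, dim genes left out, the replicate block with and without the variance filter, the array's interquartile range as a covariate, the array labelled WT 6 months replicate 4 counted as R6/1, and both arrays of narrow spread left out, a setting chosen after seeing the data. With array weights 2 were called (Serping1 and Cd59a), and with 1 array left out in turn 0 to 1. The adjusted p of Serping1 ran from 0.0166 to 0.636. Between WT ages, where 1 was called, 0 were called with only the arrays compared, with median-centred arrays, with the array labelled WT 6 months replicate 4 counted as R6/1 and at an adjusted p under 0.05. It was 2 with no variance filter, repeated quantile normalization, dim genes left out or the replicate block, 3 with array weights, the block without the filter, the interquartile range covariate or both arrays of narrow spread left out, and 0 to 3 with 1 array left out. The replicate block added Serping1 in R6/2 and between WT ages and changed no other call. The cause of these changes was not tested.

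Signs turned only in small differences, and 14 of the 25 values kept theirs in all settings run. With array weights, C1qa in R6/1 was 0.0022, Cd59a in R6/1 -0.0697, C1qc in R6/2 -0.0502, and between ages C1qb was -0.0519, C1qc -0.0729 and C4b 0.119. With the replicate block C1qa in R6/1 was 0.0185. With the array labelled WT 6 months replicate 4 counted as R6/1, C1qa in R6/1 was 0.0441 and C1qc between ages -0.0310. With both arrays of narrow spread left out, C1qa in R6/1 was 0.0268, Cd59a in R6/1 -0.127 and C1qc between ages -0.0098. Between ages, C1qc was -0.0050 after median centring, -0.015 after repeated quantile normalization and -0.0066 with the covariate, and C4b was 0.00099 and 0.0056 under the last 2. With 1 array left out, the ranges that crossed 0 were -0.0669 to 0.0191 (C1qa), -0.0378 to 0.400 (C4b), -0.0091 to 0.0196 (Cfb) and -0.0743 to 0.0838 (Cd59a) in R6/1, -0.0396 to 0.0840 (C1qc), -0.181 to 0.254 (C4b) and -0.0714 to 0.198 (C1ra) in R6/2, and -0.0635 to 0.0602 (C1qc), -0.246 to 0.149 (C4b) and -0.0039 to 0.0762 (Cfb) between ages. Leaving out dim genes gave no value for C1qc, Cfb and C1ra, and the arrays compared alone gave none for the difference between the models.

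With 3 or 4 arrays a group and dim signals for 6 of the 8 genes, small differences were not resolved, and 1 array of doubtful label lies in a reference group.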
